A study of Mus musculus with 10 samples.

Results

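Early and late Fev cells were compared in the embryonic mouse pancreas by single-cell RNA sequencing on the 10x Chromium platform. Cells were kept with at least 200 detected genes, at least 2 Fev UMIs (unique molecular identifiers, that is, counted transcript molecules), at most 1 Col3a1 UMI, and Gcg, Ins1 plus Ins2, and Sst each below 1% of the UMIs of the cell. A cell was called early with at least 1 Pax4 UMI or at least 2 Neurog3 UMIs. It was called late with at least 5 Chgb UMIs, no Pax4 UMI and at most 1 Neurog3 UMI. The gate held 1012 early and 955 late cells, 1967 of the 57982 cells with 200 genes in the whole series, in the 7 libraries with at least 15 cells on each side. A further 106 Fev cells of these libraries met neither definition. The names early and late are those of the gate, and no time was measured within a cell.

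The libraries came from pooled pancreata of 1 litter each. Swiss Webster embryos gave E14.5 version 1 batch 1 (14 pancreata), E14.5 version 1 batch 2 (11 pancreata), E17.5 version 1 (8 pancreata), E12.5 version 2 (14 pancreata), E14.5 version 2 (13 pancreata) and E17.5 version 2 (13 pancreata, whose 2 wells were summed), where the version is that of the 10x kit. The version 2 Swiss Webster suspensions had been depleted of CD140a+ cells, which removes mesenchyme. The seventh library, E14.5 Fev-Cre, held 3 pancreata of Fev-Cre; ROSA26mTmG embryos on a C57BL/6J background. In these, Cre from a Fev-Cre transgene switches a cell and its descendants from membrane tdTomato to membrane GFP. GFP+ cells had been sorted and supplemented with tdTomato+ GFP- cells. Every library was 1 pool, so embryonic day, kit, strain and sort were partly tied together and each library was treated as 1 replicate with both sides in it.

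Pancreatic endocrine cells arise from epithelial progenitors that transiently switch on Neurog3, a basic helix-loop-helix transcription factor needed for all islet lineages. Pax4, a paired-homeodomain factor, acts downstream of Neurog3 and favours the beta and delta fates. Fev is an ETS-family transcription factor best known for specifying serotonergic neurons, and Chgb (chromogranin B) is a soluble protein of dense-core secretory granules. Cells that turn off Neurog3 go on to build the granules, convertases and channels that a hormone-secreting cell needs.

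The gate separated the sides on Pax4 and Neurog3 far more than on Chgb. Of the early cells, 508 passed by Pax4 alone, 121 by Neurog3 alone and 383 by both, and 897 of the 1012 (88.6%) also held 5 or more Chgb UMIs. Summed Chgb was 8022 ± 4658 CPM (UMIs per 1000000 UMIs of the sum, mean ± SD, n = 7 libraries) in early and 9326 ± 3641 CPM in late cells, and was higher in late cells in 5 of 7 libraries. Fev was 1358 ± 892 CPM in early and 912 ± 557 CPM in late cells, lower in late cells in 7 of 7 libraries. Neurog3 was 1676 ± 1196 CPM in early and 18.4 ± 15.4 CPM in late cells, and Pax4 was 378 ± 183 CPM in early cells. These genes chose the cells, so their values are a description and were not tested. At the edges of the gate, 12 late cells held exactly 5 Chgb UMIs and 15 cells stayed outside with 4, and 289 cells were early through a single Pax4 UMI.

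The summed UMIs per library and side ranged from 66379 to 3464933 for early and from 69918 to 4147070 for late cells. Early cells were deeper than late cells in E12.5 version 2, with a median of 9005 against 6129 UMIs per cell, and in E14.5 version 2, with 7337 against 5210. All 7 endocrine and all 5 epithelial markers were detected in every sum of both sides. Mesenchymal markers summed to at most 128 CPM, mesothelial markers to at most 23.9 CPM and immune markers to at most 340 CPM in any sum, whereas acinar markers reached 9470 CPM and erythroid markers 56215 CPM. Cells with 1% or more of another compartment's markers, or 5% or more of erythroid transcripts, were left out in an alternative run that passed 629 genes in place of 592. Sequenced barcodes were shared by 16 pairs of matrices, 19 to 156 per pair, and 1 of them was a member in both.

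Across all genes, 592 of 6118 tested genes differed between late and early cells at an adjusted p below 0.05 (9.68% of the genes tested). This was edgeR's quasi-likelihood test on UMI sums with library as a block and Benjamini-Hochberg adjustment over all genes. Of these, 319 were higher (5.21%) and 273 lower (4.46%) in late cells. A difference of at least 2-fold was called for 64 genes (1.05%), 27 higher (0.441%) and 37 lower (0.605%) in late cells, and 53 of the 64 moved the same way in all 7 libraries, as did 10.6% of all tested genes. The split depended on the setting, with 11 higher and 4 lower for early cells by Pax4 alone, and 46 higher and 43 lower in DESeq2. The median log2 difference over all tested genes was 0.00073. Counts in the gene lists below are read beside the 5.21% higher and 4.46% lower over all tested genes. Ranges without overlap are described for single genes, and their share over all tested genes was not counted. The words rose and fell below describe late relative to early cells for genes that passed this test, and log2 differences are late minus early, with their standard errors.

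Genes of the Neurog3 stage made up the most uniform group on the early side. All 16 tested members of a 25-gene list of the Neurog3 stage fell, with a median of -1.02 against 0.00073 over all genes, while 9 members had too few counts to test. Since Neurog3 itself was in the gate, the list reports on the state the gate selected. Btbd17, a BTB-domain protein expressed in Neurog3+ progenitors, had its lowest, median and highest library at 105, 294 and 605 CPM in early cells and 26.8, 35.1 and 105 CPM in late cells. The fitted change was -2.46 ± 0.14 (adjusted p = 3.0e-10, edgeR), and Btbd17 was lower in late cells in every library. Its early and late ranges met at the lowest early and the highest late library. For Gadd45a, a stress-inducible growth-arrest protein, the lowest, median and highest early libraries were 218, 291 and 709 CPM and the late libraries 36.0, 79.2 and 143 CPM. The ranges did not overlap, and the fitted change of Gadd45a was -1.98 ± 0.15 (adjusted p = 3.0e-08, edgeR). Igfbpl1, a secreted IGF-binding-like protein, changed by -1.91 ± 0.14 and the peptide hormone gene Cck by -1.54 ± 0.12. Sox4, an SRY-box factor required for endocrine differentiation, changed by -0.81 ± 0.09 and Runx1t1, a transcriptional corepressor, by -0.79 ± 0.15. All of these were lower in late cells in 7 of 7 libraries, which the choice of Btbd17, Gadd45a, Igfbpl1 and Cck had required.

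**Figure D1:**
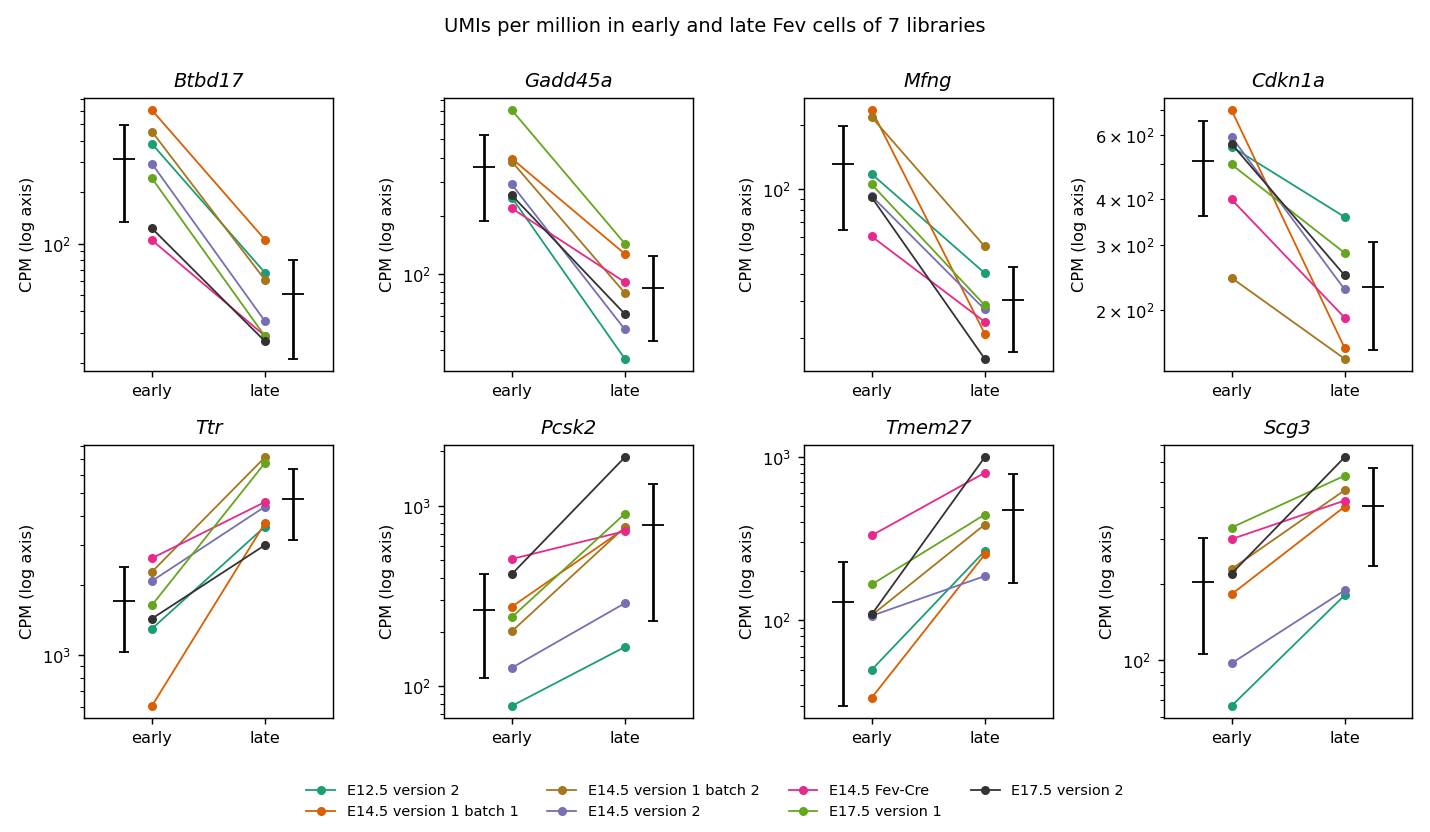
CPM of 8 genes in early and late cells, on a log axis, with 1 line per library joining the sides and a black bar for the mean ± SD of 7 libraries. Every line falls for Btbd17, Gadd45a, Mfng and Cdkn1a and rises for Ttr, Pcsk2, Tmem27 and Scg3.

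Most tested Notch-pathway genes were lower in late cells. Of 7 tested members, 4 fell and 1 rose, against 4.46% and 5.21% of all tested genes. The median was -0.56, and 18 further members had too few counts. Hes6 and Mfng are also in the Neurog3-stage list. Mfng, a glycosyltransferase that modifies Notch receptors, ranged over 60.2, 106 and 235 CPM (lowest, median, highest) in early and 16.1, 27.4 and 54.0 CPM in late cells, without overlap, and changed by -1.68 ± 0.14 (adjusted p = 1.3e-07, edgeR). Dll3, an inhibitory Notch ligand, changed by -1.09 ± 0.17, and Hes6, a bHLH factor that opposes Hes1, by -0.93 ± 0.09, both in 7 of 7 libraries. Rbpj, the DNA-binding partner of the Notch intracellular domain, changed by -0.56 ± 0.17 (adjusted p = 0.038, edgeR), and was at -0.55 without E14.5 version 1 batch 1 (adjusted p = 0.053) and -0.56 without batch 2 (adjusted p = 0.060). Dlk1, a non-canonical ligand, rose by 0.48 ± 0.13 (adjusted p = 0.027, edgeR), and was at 0.41 without E14.5 version 1 batch 2 (adjusted p = 0.10) and 0.45 without E17.5 version 1 (adjusted p = 0.053). The Notch target Hes1 (0.21) and the ubiquitin ligase Mib1 (0.12) did not pass.

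The general endocrine transcription factors moved less. Of 15 tested members, 6 fell and 1 rose, against 4.46% and 5.21% of all tested genes, and 8 did not pass. The median was -0.12. Nkx2-2, a homeodomain factor of all islet lineages, had 225, 352 and 544 CPM (lowest, median, highest) in early and 138, 200.4 and 306 CPM in late cells, and changed by -0.69 ± 0.09 (adjusted p = 1.4e-05, edgeR). Smaller decreases were called for the zinc-finger factor Myt1 (-0.57), the RFX factors Rfx6 (-0.52) and Rfx3 (-0.51), Neurod1 (-0.35), a direct target of Neurog3, and St18 (-0.40). Without the E14.5 Fev-Cre library these 5 lost the call while the change stayed close, at -0.54 for Myt1 (adjusted p = 0.075), -0.42 for Rfx6 (0.19), -0.54 for Rfx3 (0.16), -0.32 for Neurod1 (0.081) and -0.42 for St18 (0.11, edgeR), and all but Myt1 also lost it without another library. With early cells by Pax4 alone, Nkx2-2 was at -0.26 (adjusted p = 0.17, edgeR). Etv1, an ETS factor like Fev, rose by 0.75 ± 0.14 in 7 of 7 libraries (adjusted p = 9.4e-04, edgeR). Among factors that did not pass, the values were -0.10 ± 0.11 for Insm1, 0.18 ± 0.08 for Pax6 and 0.30 ± 0.10 for Isl1. The others without a call were Mlxipl at 0.06, Foxa2 at -0.19, Tshz1 at 0.25, Zfp148 at 0.11 and Klf4 at -0.12.

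Cell-cycle exit genes and some epithelial genes were lower in late cells. Of 11 tested cell-cycle exit genes, 6 fell and none rose (median -0.40), with Gadd45a and Cdkn1a also in the Neurog3-stage list. The p53 target Cdkn1a, a cyclin-dependent kinase inhibitor, had 245, 556 and 699 CPM (lowest, median, highest) in early and 148, 228 and 358 CPM in late cells and changed by -1.08 ± 0.11 (adjusted p = 9.8e-07, edgeR). The antiproliferative Btg2 changed by -1.10 ± 0.11 and Gadd45g by -0.84 ± 0.10. With early cells by Pax4 alone, Cdkn1a was at -0.16 (adjusted p = 0.61) and Gadd45g at -0.14 (adjusted p = 0.74, edgeR). Of 12 tested genes of the cell cycle itself, 1 fell and none rose, against 4.46% and 5.21% of all tested genes. A further 22 of the 34 members of that list had too few counts to test. Among 17 tested epithelial, adhesion and cytoskeletal genes, 7 fell and 2 rose, while 8 did not pass. The keratins Krt7, Krt8 and Krt19 were among those that fell, with -1.04 ± 0.09 for Krt7, -0.74 ± 0.09 for Krt8 and -0.92 ± 0.16 for Krt19. Krt7 stood at 613, 1005 and 1828 CPM (lowest, median, highest) in early and 352, 396 and 917 CPM in late cells. The neuronal tubulin Tubb3 changed by -0.84 ± 0.12, whereas the adhesion molecule Ncam1 rose by 0.96 ± 0.14 and E-cadherin, Cdh1, by 0.59. Of the 5 epithelial markers, Epcam (-0.13), Krt18 (-0.17) and Cldn7 (0.021) did not pass. Of 7 tested duct and progenitor factors, 2 fell, Foxa3 at -0.84 ± 0.12 and Tead2 at -0.72 ± 0.14. With early cells by Pax4 alone both calls ended, Foxa3 at -0.097 (adjusted p = 0.82) and Tead2 at -0.0050 (adjusted p = 1.0, edgeR), and Foxa3 was also without a call in the version 1 libraries (adjusted p = 0.13).

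Of the 12 genes with the largest decreases, 7 belonged to none of these lists. They included Rab15, a small GTPase of endosomal recycling (-1.76 ± 0.25), Mmd2 (-1.62 ± 0.22), the glutathione peroxidase Gpx2 (-1.59 ± 0.12), the neuronal calcium sensor Hpca (-1.51 ± 0.22) and the noncoding RNA Miat (-1.51 ± 0.17). The others were Gm42637, which had the largest decrease of the rule at -2.50 ± 0.22, and 1810008I18Rik at -1.47 ± 0.18. All 7 were lower in late cells in every library, which was a condition for being among these 12. In E17.5 version 1 this rested on 1 against 0 UMIs for Gm42637, 3 against 2 for Rab15 and Miat, and 4 against 2 for Gpx2. Rab15 was also at 4 against 2 UMIs in E14.5 version 1 batch 1. Mmd2 did not overlap between the sides, at 22.0, 34.3 and 90.5 CPM (lowest, median, highest) in early and 2.68, 10.5 and 14.3 CPM in late cells.

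Genes of the alpha lineage made up the group with the highest median on the late side. Of 13 tested members, 9 rose and none fell, against 5.21% and 4.46% of all tested genes, at a median of 0.91. The sides were not equal in residual Gcg, which the gate only held below 1% of the UMIs of a cell. Gcg was higher in late cells in every library except E14.5 version 2 (201 CPM in early, 175 CPM in late cells). Early and late values were 230 and 811 CPM in E12.5 version 2, and 307 and 570 CPM in E14.5 Fev-Cre. In E17.5 version 2 they were 40.9 and 741 CPM. The part of residual Gcg in the alpha-lineage changes was not tested. Ttr (transthyretin), a hormone carrier abundant in alpha cells, had 605, 1643 and 2618 CPM (lowest, median, highest) in early and 2983, 4368 and 7133 CPM in late cells. These ranges did not overlap, and Ttr rose by 1.47 ± 0.14 (adjusted p = 4.5e-07, edgeR). Tmem27, a membrane glycoprotein of islet cells, rose by 1.78 ± 0.20, from 33.6, 107 and 331 CPM to 187, 385 and 995 CPM (lowest, median, highest). The kinase gene Wnk3 rose by 1.46 ± 0.19 and the imprinted, retrotransposon-derived Peg10 by 1.41 ± 0.14. Each of these was higher in late cells in 7 of 7 libraries, which was a condition for being named among the largest increases. In E17.5 version 1 this rested on 0 early against 2 late UMIs for Wnk3 and 1 against 6 for Peg10. Tmem27 was at 11 against 31 UMIs there and Ttr at 109 against 471. Wnk3 was also at 0 against 4 UMIs in E14.5 version 1 batch 1. Irx2, an Iroquois factor of alpha cells named here after its value was seen, rose by 1.21 ± 0.20 in 6 of 7 libraries. With early cells by Neurog3 alone Irx2 was at 0.12 (adjusted p = 0.96), and with early cells below 5 Chgb UMIs at -0.50 (adjusted p = 0.55, edgeR).

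Genes of granule cargo and prohormone processing were higher in late cells. Of 8 tested granins and granule proteins, 6 rose and none fell (median 0.79), and of 8 tested genes of prohormone processing, 6 rose and none fell (median 0.62). The lists share Scg5 and other members, so their counts are not separate evidence, and 5.21% of all tested genes rose. The granule protein Chgb was in the gate of the late side, so these lists also report on the state the gate selected. The convertase Pcsk2, which cleaves proglucagon and proinsulin, had 77.8, 241 and 506 CPM (lowest, median, highest) in early and 165, 748 and 1854 CPM in late cells and rose by 1.36 ± 0.15 (adjusted p = 5.0e-06, edgeR). Its chaperone Scg5 rose by 0.88 ± 0.11, the amidating enzyme Pam by 0.87 ± 0.10 and the convertase inhibitor Pcsk1n by 0.71 ± 0.08. The granin Scg3 rose by 1.01 ± 0.11 and Scg2 by 1.59 ± 0.26, the latter in 6 of 7 libraries. Resp18, a protein of endocrine granules, rose by 1.62 ± 0.22, and by 2.25 without the E14.5 Fev-Cre library. Chga, the other chromogranin, did not pass at 0.20 ± 0.07. With early cells below 5 Chgb UMIs, Pcsk2 was at 2.74 and Scg2 at 0.99 (adjusted p = 0.38, edgeR). With early cells by Neurog3 alone, Pcsk2 was at 0.53 (adjusted p = 0.31, edgeR). There Scg2, Scg3, Scg5, Pam and Resp18 also lost the call, while Pcsk1n kept it.

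Among endoplasmic reticulum folding and secretion genes no change reached 2-fold. Of 20 tested members, 11 rose and 1 fell, at a median of 0.34. The ER stress-inducible factor Manf rose by 0.64 ± 0.09, the disulphide isomerase Pdia6 by 0.58 ± 0.10, Sdf2l1 by 0.56 ± 0.13 and the translocon-associated Ssr4 by 0.54 ± 0.09, each in 7 of 7 libraries. Exocytosis genes were mixed, with 3 of 17 tested higher and 3 lower, against 5.21% and 4.46% of all tested genes. The granule GTPase Rab3a rose by 0.78 ± 0.12 and Rab3b by 0.91 ± 0.21, while the effector Rph3al changed by -0.49 ± 0.09. Rab3b was at 1.53 without the E14.5 Fev-Cre library. It had no call in the E14.5 libraries (0.59, adjusted p = 0.12) or in the version 2 libraries (0.70, adjusted p = 0.0996, edgeR). Among 6 tested ion channel genes, 2 rose and 2 fell. Abcc8, the sulphonylurea receptor subunit of the ATP-sensitive potassium channel, rose by 1.02 ± 0.15 and the BK-channel subunit Kcnmb2 by 1.01 ± 0.17, whereas the calcium channel subunits Cacna2d1 and Cacna1h changed by -0.996 ± 0.12 and -0.76 ± 0.16. Of 9 tested G-protein signalling genes, 4 rose and 1 fell. Gnas, the stimulatory alpha subunit, rose by 0.58 ± 0.07, Gnai1, an inhibitory one, by 0.74 ± 0.12 and Gng12, a gamma subunit, by 0.49 ± 0.11, while Rgs17, which speeds the shutdown of G proteins, changed by -0.55 ± 0.10. With early cells by Pax4 alone Gng12 (0.25, adjusted p = 0.23) and Gnai1 (0.40, adjusted p = 0.083) lost the call, as they did in the version 1 libraries (adjusted p = 0.22 and 0.094), and Gng12 was at 0.45 in the version 2 libraries (adjusted p = 0.053, edgeR).

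**Figure D2:**
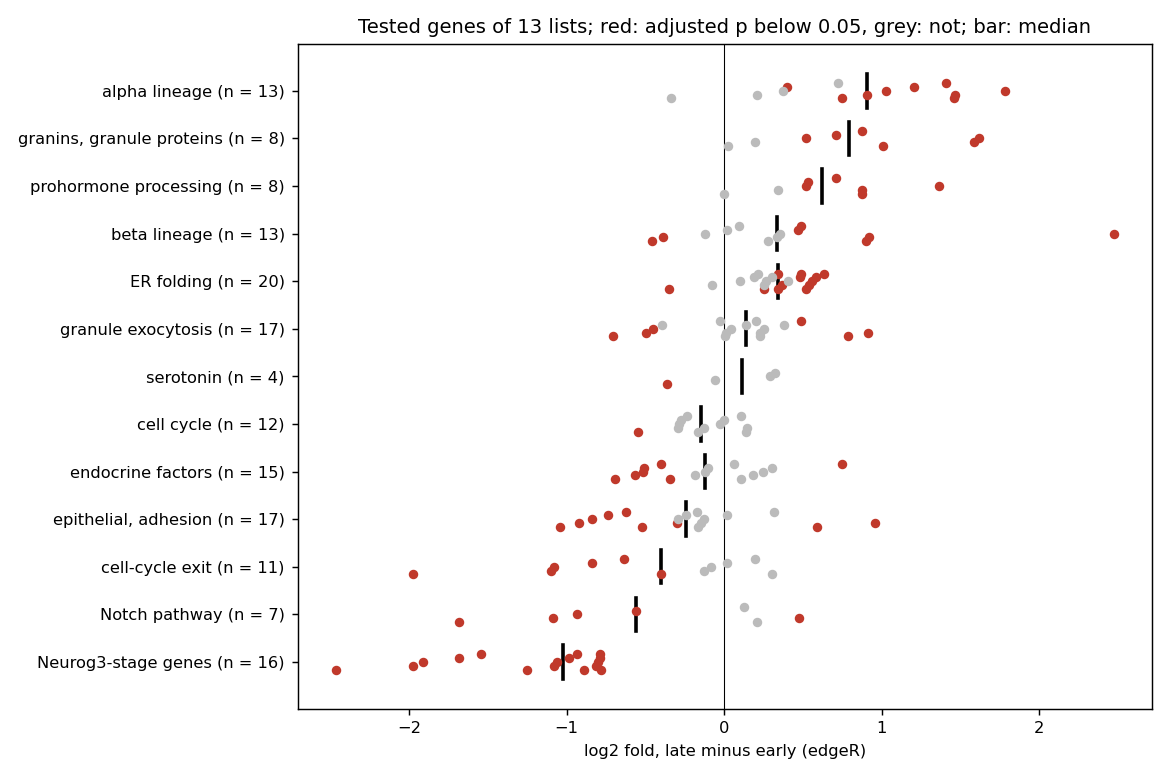
Log2 difference, late minus early, of the tested members of 13 gene lists, 1 point per gene, red where the adjusted p was below 0.05 and grey otherwise, with the median as a bar. All 16 Neurog3-stage genes lie below 0, and 9 of 13 alpha-lineage genes are red above 0.

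Beta-lineage genes went both ways. Of 13 tested members, 5 rose and 2 fell, at a median of 0.34. Residual Ins2, below the 1% limit of the gate, was higher in late cells in every library. Early and late values of Ins2 were 50.3 and 403 CPM in E14.5 version 1 batch 2, and 629 and 730 CPM in E14.5 Fev-Cre. Ins1 was also higher in late cells, except in E17.5 version 1 (60.3 and 42.9 CPM). The part of residual insulin transcripts in the beta-lineage changes was not tested. Iapp, the amyloid peptide co-secreted with insulin, rose most, from 8.19, 239.9 and 1084 CPM (lowest, median, highest) in early to 108, 1332 and 12495 CPM in late cells, by 2.47 ± 0.50 (adjusted p = 0.0022, edgeR). It was higher in late cells in 7 of 7 libraries, which was a condition for being named among the largest increases. The size depended on the library. The Iapp change was 1.56 without E17.5 version 2 and 3.20 without E14.5 version 2. It was 3.14 without E14.5 Fev-Cre and 1.06 in the E14.5 libraries alone. Its adjusted p was 0.13 in the version 2 libraries and 0.11 with early cells limited to Pax4 alone (edgeR). Cells with Iapp at 1% or more of their UMIs, 36 of 955 late cells, held 60.8% of the late Iapp UMIs. The Iapp change was 1.38 without cells rich in another hormone and 1.30 with the gate on thinned cells. Pdx1, a homeodomain factor of pancreas and beta cells, rose by 0.47 ± 0.11 in 6 of 7 libraries. The Pdx1 call ended with early cells by Pax4 alone (0.096, adjusted p = 0.73), in the E14.5 libraries (0.37, adjusted p = 0.090), in the version 2 libraries (0.33, adjusted p = 0.10) and with thinned cells (0.39, adjusted p = 0.10, edgeR). The sulphate-donor synthase Papss2 rose by 0.92 ± 0.19 and the proinsulin-folding oxidase Ero1lb by 0.90 ± 0.18. The beta-cell factor Nkx6-1, named here after its value was seen, was among those that fell, at -0.46 ± 0.09. The Nkx6-1 call ended in the version 1 libraries (-0.30, adjusted p = 0.49) and with early cells by Neurog3 alone (-0.21, adjusted p = 0.69, edgeR). With early cells below 5 Chgb UMIs it was at -0.055 (adjusted p = 0.96, edgeR).

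Most Ghrl UMIs came from few cells. Ghrl (ghrelin), the product of epsilon cells, was lower in late cells at -2.55 ± 0.48 (adjusted p = 0.0013, edgeR), in 6 of 7 libraries. Its libraries were at 30.1, 489 and 1559 CPM (lowest, median, highest) in early and 3.60, 21.4 and 276 CPM in late cells. However, 10 of 1012 early cells, those with Ghrl at 1% or more of their UMIs, held 83.2% of the early Ghrl UMIs, and 7 of the 10 were among the 121 cells early by Neurog3 alone, while none was among the 508 early by Pax4 alone. With the early side limited to cells early by Pax4 alone, the direction turned to 2.08 (adjusted p = 1.1e-04, edgeR), and with cells left out in which Ghrl, Ppy, Pyy, Iapp or Gip reached 1% of UMIs it was 0.21 (adjusted p = 0.80, edgeR). With early cells of 5 or more Chgb UMIs, as the late side requires, Ghrl was at -0.34 (adjusted p = 0.75, edgeR), and with those below 5 it was at -6.96. It was -3.43 without E12.5 version 2 and -3.20 without E14.5 Fev-Cre. Pyy (peptide YY), an early islet peptide, was at 538, 1546 and 3966 CPM in early and 415, 4310.2 and 15144 CPM in late cells (lowest, median, highest). It rose by 1.20 ± 0.31 in 6 of 7 libraries (adjusted p = 0.016, edgeR), but Pyy was at 1.00 without E12.5 version 2 (adjusted p = 0.078, edgeR) and at 1.08 in DESeq2 (adjusted p = 0.24). The size of the Pyy change also moved with the gate and the kit, to 0.43 in the version 1 libraries (adjusted p = 0.63), 0.51 with the gate on thinned cells (adjusted p = 0.23), 0.63 with early cells by Neurog3 alone (adjusted p = 0.40) and 2.17 with early cells of 5 or more Chgb UMIs (edgeR). Pyy reached 1% of UMIs in 145 of 955 late cells (15.2%) and 77 of 1012 early cells (7.61%). Gip, an incretin, rose by 2.19 ± 0.53 (adjusted p = 0.011, edgeR), from a median library of 2.73 to 35.1 CPM. In E12.5 version 2, 2 of 67 late cells held 151 of 259 late Gip UMIs, and both E17.5 libraries had none. The adjusted p of Gip was 0.20 in DESeq2, 0.11 in the version 2 libraries and 0.055 at E14.5, where the change was 0.84 (edgeR). Pyy and Gip were named after their values were seen.

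The transcription factor that defines these cells is the master regulator of serotonergic neurons, and the serotonin list was therefore examined. Of its 18 members only 4 had enough counts to test, and the rate-limiting hydroxylases Tph1 and Tph2 were not among them. Qdpr, which regenerates the tetrahydrobiopterin cofactor, changed by -0.37 ± 0.09 in 7 of 7 libraries (adjusted p = 0.0076, edgeR). The Qdpr call ended with cells thinned to 2000 UMIs (-0.27, adjusted p = 0.12, edgeR). It also ended in the version 1 libraries (-0.57, adjusted p = 0.099) and the version 2 libraries (-0.32, adjusted p = 0.093, edgeR). Ddc, the decarboxylase that makes serotonin, was at 65.5, 121 and 249.8 CPM (lowest, median, highest) in early and 63.0, 120.4 and 242 CPM in late cells, a difference of -0.06 ± 0.14 that did not pass. Gch1 and Pts, which make the cofactor, were at 0.29 ± 0.13 and 0.32 ± 0.11, also without passing.

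Of the remaining lists, 5 of 15 tested imprinted genes rose and 1 fell, and 1 of 12 immediate early genes rose and 3 fell, Jun at -0.53 ± 0.10 and Jund at -0.56 ± 0.08 among them. In the marker lists, 1 of 4 acinar genes rose, 2 of 5 ductal genes fell, 0 of 4 erythroid genes passed, the only endothelial gene tested did not pass, and the only neural gene tested, the RNA-binding Elavl4, fell, at -0.97 ± 0.18. No mesenchymal, mesothelial or immune marker had enough counts to test. Of all tested genes 5.21% rose and 4.46% fell, and a count of 1 gene in a list is not read as a result. Of 12 genes that the study discusses for Fev cells, 4 rose and 4 fell, but these were chosen on the same samples, so the count is no independent evidence of direction. Those that did not pass were Isl1 and Chga (above), Vim at 0.32 ± 0.13 and Cldn4 at -0.29 ± 0.10. A call was gained in 6 alternatives for Isl1, 3 for Chga, 4 for Vim and 6 for Cldn4. With early cells below 5 Chgb UMIs Vim was at 1.55 (adjusted p = 0.0027) and Isl1 at -1.27 (adjusted p = 1.4e-04, edgeR). The other genes among the 12 largest increases were Tmsb15b2, a thymosin whose close paralog Tmsb15l can share its reads (1.41 ± 0.16), the phosphatase inhibitor Ppp1r1a (1.40 ± 0.23), the amino-acid transporter Slc16a10 (1.39 ± 0.21), BC048546 (1.20 ± 0.16) and Prss50 (1.20 ± 0.18).

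Promoter sequences are shown for 2 genes of the 12 that fell most and 2 of the 12 that rose most, to set the start sites of genes that moved together side by side. Those of Gadd45a, which fell, and Wnk3, which rose, were also drawn but are not shown, and held 0 matches to the letters below. Each runs from 250 bases before to 50 after the start in the RefSeq table of GRCm38.p6, on the strand of the gene, with the E-box letters CAGATG (or its complement CATCTG) and CAGCTG, which bHLH factors such as Neurog3 and Neurod1 can bind, in capitals. Btbd17 lies on the minus strand (chr11:114795843-114796142), Rab15 on the minus strand (chr12:76822475-76822774), Iapp on the plus strand (chr6:142298175-142298474) and Resp18 on the minus strand (chr1:75278366-75278665).
Btbd17: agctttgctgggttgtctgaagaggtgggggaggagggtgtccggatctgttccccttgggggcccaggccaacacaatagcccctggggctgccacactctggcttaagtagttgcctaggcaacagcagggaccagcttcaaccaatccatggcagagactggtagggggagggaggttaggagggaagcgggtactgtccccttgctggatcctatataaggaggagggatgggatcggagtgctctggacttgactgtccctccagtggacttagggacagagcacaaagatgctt
Rab15: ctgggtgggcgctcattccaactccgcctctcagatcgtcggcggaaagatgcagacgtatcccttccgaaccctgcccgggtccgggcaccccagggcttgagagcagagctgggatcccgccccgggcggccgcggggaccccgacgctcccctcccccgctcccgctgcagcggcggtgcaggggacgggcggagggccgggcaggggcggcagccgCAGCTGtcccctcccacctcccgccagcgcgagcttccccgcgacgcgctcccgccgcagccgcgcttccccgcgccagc
Iapp: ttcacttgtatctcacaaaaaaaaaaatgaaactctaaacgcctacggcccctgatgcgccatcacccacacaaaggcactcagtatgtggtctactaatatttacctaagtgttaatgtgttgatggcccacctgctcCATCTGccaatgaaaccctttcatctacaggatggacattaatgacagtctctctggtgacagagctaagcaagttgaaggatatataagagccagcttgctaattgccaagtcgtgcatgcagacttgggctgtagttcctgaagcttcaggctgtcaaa
Resp18: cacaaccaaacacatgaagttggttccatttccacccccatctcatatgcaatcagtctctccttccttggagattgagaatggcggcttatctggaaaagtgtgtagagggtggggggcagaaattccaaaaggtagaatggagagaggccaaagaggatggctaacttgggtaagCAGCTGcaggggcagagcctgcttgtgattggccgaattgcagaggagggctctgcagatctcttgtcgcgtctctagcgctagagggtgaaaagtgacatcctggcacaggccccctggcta
The letters CAGATG on either strand were in 6 of 28 promoters of genes called 2-fold lower in late cells (21.4%) and 3 of 20 of those called 2-fold higher (15.0%), against 17.2% of 27025 promoters in the table and 10.0% of those of tested genes. CAGCTG was in 5 of 28 (17.9%) and 3 of 20 (15.0%), against 16.1% and 13.3%. Genes with no promoter in the table were left out, and a match is a description of letters only.

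The same genes were then read in neighbouring groups of cells. Cells with at least 5 Neurog3 UMIs and no Fev UMI, early cells with both Pax4 and Neurog3, early cells with Pax4 alone, late cells, and cells with Gcg or insulin at 5% or more of UMIs (Gcg-high and Ins-high cells) were summed per library with at least 15 cells. As these groups share libraries and were cut on the same genes, the values are descriptive. Btbd17 was at 1125, 497, 126 and 50.5 CPM in the first 4 groups, as means over 6 or 7 libraries. Gadd45a was at 1672, 490.5, 114 and 84.0 CPM in the same groups, with a nearer value in cells with Pax4 alone than in those with both genes to that of late cells. Pcsk2 ran the other way, at 18.6, 177, 357 and 777 CPM, and reached 1383 CPM in Gcg-high and 1259 CPM in Ins-high cells. Ttr was at 1081, 1126, 2267 and 4728 CPM, then 16127 CPM in Gcg-high and 3664 CPM in Ins-high cells. Runx1t1 and Cacna2d1 had their highest means inside the early side: Runx1t1 was at 113 CPM in Neurog3-high cells without Fev, 387 CPM with Pax4 and Neurog3, and 176 CPM in late cells, and Cacna2d1 at 223, 466 and 210.3 CPM. Ghrl was at 2549 CPM in early cells with Neurog3 alone, in 3 libraries, and 24.5 CPM in those with Pax4 alone. It was at 2265 CPM in Neurog3-high cells without Fev, 3124 CPM in Gcg-high and 9.02 CPM in Ins-high cells. Against cells with Pax4 alone, late cells differed at 196 of 5599 tested genes, and at 15 of them by 2-fold. Of the 74 genes given with values that passed as reported and could be tested there, 48 kept the call, 25 lost it and 1, Ghrl, turned, in 6 libraries. Against cells with Neurog3 alone, in 3 libraries, 19 of 77 kept the call and 58 lost it. Beside those already named, the calls lost against cells with Pax4 alone included Etv1 (0.46), Dlk1 (0.30), Qdpr (-0.15), Papss2 (0.41), Rab3b (0.50), Kcnmb2 (0.53), Tubb3 (-0.42) and Hpca (-0.85).

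**Figure D3:**
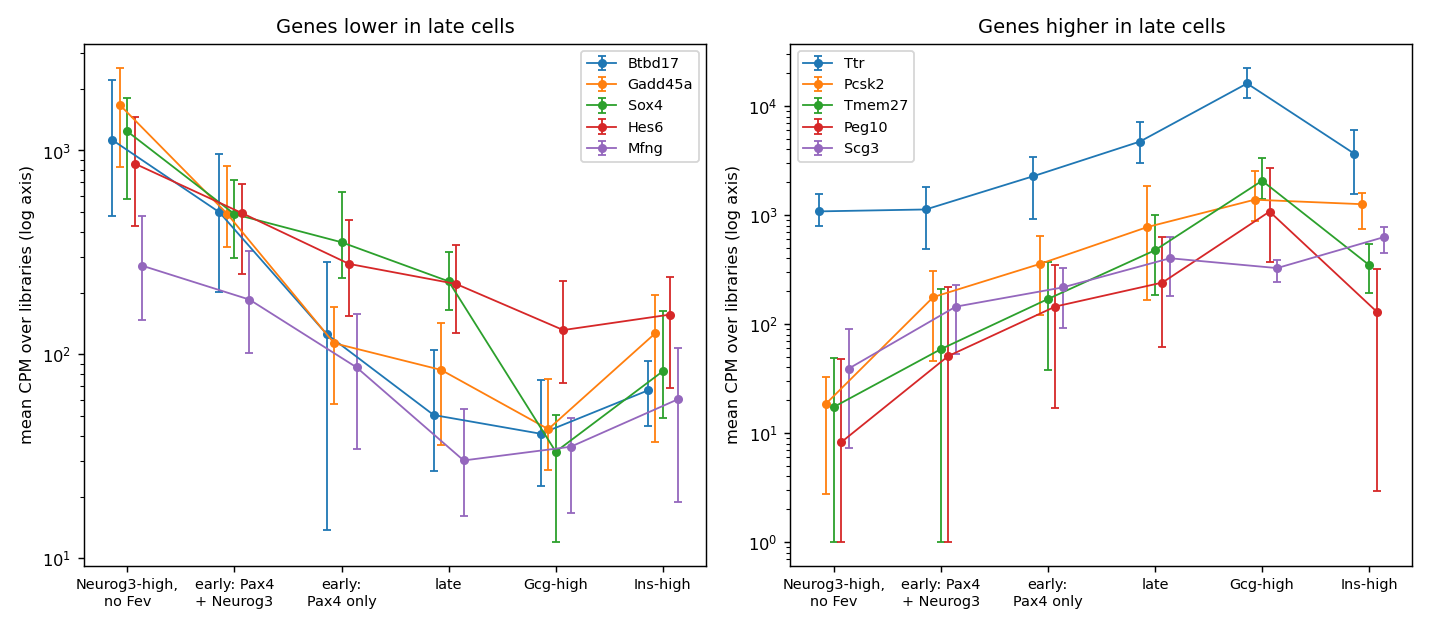
Mean CPM over libraries, on a log axis, of 5 genes that fell (left) and 5 that rose (right), from Neurog3-high cells without Fev to Gcg-high and Ins-high cells; whiskers run from the lowest to the highest library, and a lowest library below 1 CPM is drawn at 1. Gadd45a drops from 1672 CPM in Neurog3-high cells to 84.0 CPM in late cells, and Ttr climbs from 1081 to 4728 CPM.

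The reporter of the E14.5 Fev-Cre library was not among the genes of the gate, but Fev-Cre turns it on and Fev chose the cells. It is therefore not independent of the selection. An eGFP UMI was found in 384 of 429 early cells (89.5%, exact 95% binomial interval 86.2 to 92.2%) and 569 of 574 late cells (99.1%, 98.0 to 99.7%), counted over the cells of 1 library. Within the early side, the share was 74.8% (65.6 to 82.5%) of 111 cells with Pax4 and Neurog3, 82.6% (68.6 to 92.2%) of 46 cells with Neurog3 alone and 96.7% (93.8 to 98.5%) of 272 cells with Pax4 alone. Cells that should lack the reporter gave the background: 25.2% (21.3 to 29.5%) of 448 cells with more than 10 Col3a1 UMIs, at a median of 9463 UMIs, against medians of 6735 in early and 6619 in late cells. Neurog3-high cells without Fev stood at 20.3% (14.9 to 26.6%) of 197, at or below that background. Summed eGFP was 1608 CPM in early, 1994 CPM in late and 96.7 CPM in Col3a1-high cells. After each cell was thinned to 3000 UMIs, the shares were 85.5% of early, 97.7% of late and 10.0% of Col3a1-high cells. There was 1 Fev-Cre library, sorted on GFP, so no test between conditions was possible, the sort can set these shares, and the intervals cover counting error only.

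**Figure D4:**
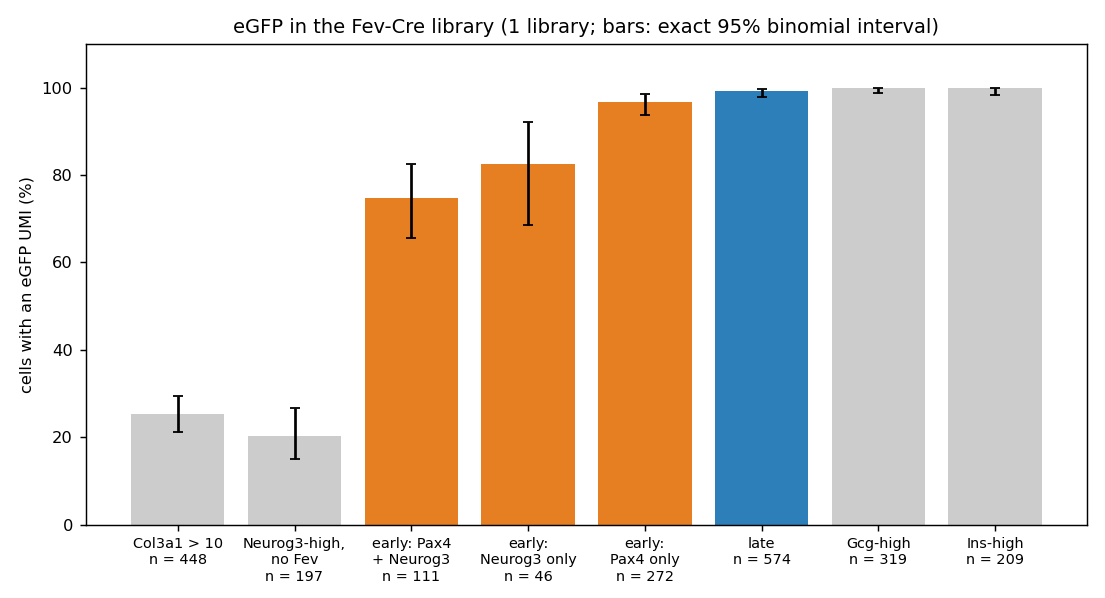
Percent of cells with an eGFP UMI in 8 groups of the E14.5 Fev-Cre library, with exact 95% binomial intervals; orange bars are early, the blue bar late, and grey bars neighbouring cells. The share climbs from 74.8% in early cells with Pax4 and Neurog3 to 99.1% in late cells.

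The late-minus-early difference itself was compared between E17.5 (2 libraries) and E14.5 (4 libraries). In edgeR's interaction test, 20 of 4894 genes passed (0.409%), 15 with a log2 ratio of late to early shifted upward at E17.5 (0.306%) and 5 with one shifted downward (0.102%), while 357 had an unadjusted p below 0.05. DESeq2 passed 0 genes (166 at an unadjusted p below 0.05), and edgeR passed 5 genes without E17.5 version 2, 11 without E14.5 version 2 and 42 without E14.5 version 1 batch 2, so these calls depend on the tool and on single libraries. Iapp had log2 ratios of 0.39 to 3.41 in the E14.5 libraries and 5.70 and 6.68 at E17.5, a difference of 4.65 ± 0.42 (adjusted p = 3.0e-07, edgeR). Its late level was 12495 CPM in E17.5 version 2, 2305 CPM in E17.5 version 1 and 316 to 1910 CPM at E14.5. Few cells carried it at E17.5: 6 of 44 late cells held 4305 of 4670 Iapp UMIs in version 2, and 2 of 23 held 157 of 161 in version 1. The pancreatic polypeptide gene Ppy passed at 6.03 ± 0.90 although its 2 E17.5 libraries had ratios of opposite sign (-1.66 and 6.30). In E17.5 version 2, 1 of 44 late cells held 271 of 311 late Ppy UMIs. Scg2 differed by 2.56 ± 0.47, the scaffold gene Ush1c by 3.50 ± 0.79 and Fam46a by 2.97 ± 0.64. In E17.5 version 1 these rested on 0 early against 4 late UMIs for Scg2, 0 against 5 for Ush1c and 0 against 2 for Fam46a. Tmem27 differed by 1.73 ± 0.32 and Dlk1 by 1.34 ± 0.24. For Tmem27 the ratios overlapped, at 0.81 to 2.80 at E14.5 and 1.38 and 3.19 at E17.5. The convertase Pcsk1, named after its value was seen, had ratios of -0.15 to 0.66 at E14.5 and 1.31 and 1.75 at E17.5 (difference 1.42 ± 0.26). Among the 5 shifted downward, Runx1t1 differed by -1.27 ± 0.26 and the metallothionein Mt1 by -1.06 ± 0.22, whose ratios also overlapped (-0.08 to 0.58 and -1.10 and 0.09). The remaining 3 were the haemoglobin genes Hbb-bt (-3.57 ± 0.34), Hbb-bs (-3.34 ± 0.44) and Hba-a1 (-3.17 ± 0.50). Erythroid transcripts summed to 56215 CPM in early and 2219 CPM in late cells of E17.5 version 1, and to 55922 and 18788 CPM in E17.5 version 2, with 1 of 23 early and 0 of 23 late cells at 5% or more in the former and 6 of 89 and 2 of 44 in the latter. Their part in the other E17.5 results was not tested.

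**Figure D5:**
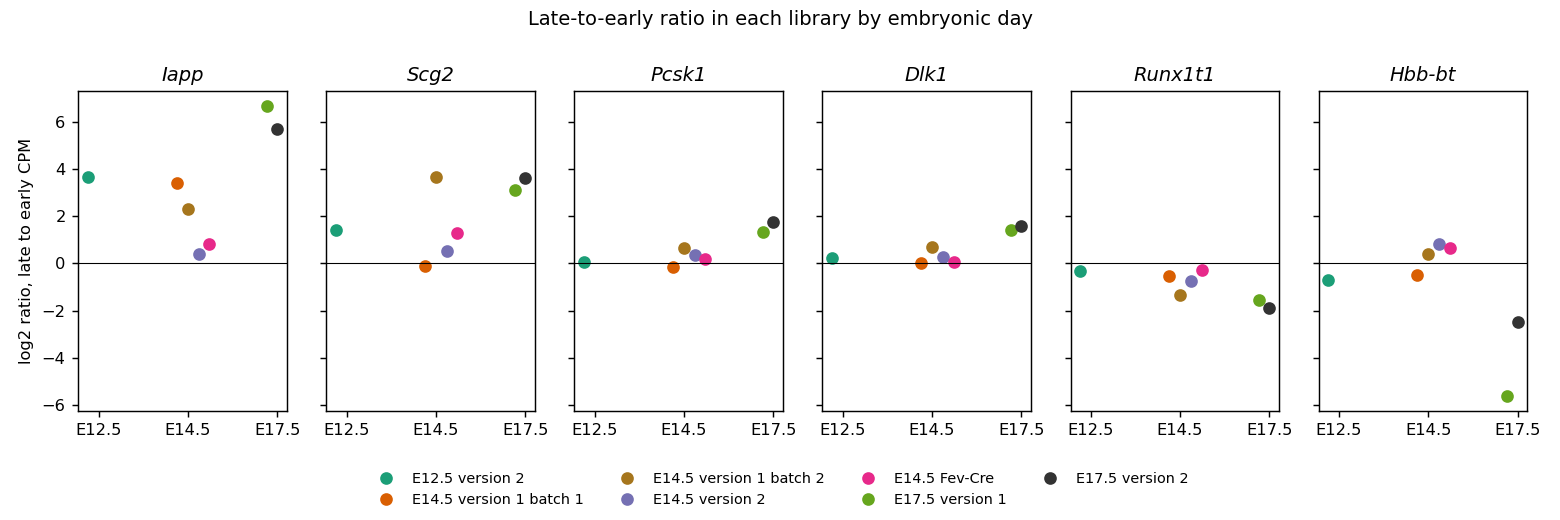
Log2 ratio of late to early CPM of 6 genes, 1 point per library, by embryonic day. At E17.5 both libraries lie above the 4 E14.5 libraries for Iapp, Pcsk1 and Dlk1 and below them for Runx1t1 and Hbb-bt, whereas for Scg2 the highest E14.5 library lies above both.

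The balance of the sides differed between libraries. Early cells made up 66.8% (exact 95% interval 59.9 to 73.3%) of both sides in E12.5 version 2, 57.8% and 53.3% in the E14.5 version 1 batches, 58.9% (53.8 to 63.9%) in E14.5 version 2, 42.8% (39.7 to 45.9%) in E14.5 Fev-Cre, 50% in E17.5 version 1 and 66.9% (58.2 to 74.8%) in E17.5 version 2. A Pax4 UMI is easier to find in a deeper cell, so the gate was repeated on cells thinned to 3000 UMIs in version 2 and 2000 in version 1 libraries, without the shallower cells. The early share was then 58.6% (58 early and 41 late cells) in E12.5 version 2, 47.4% in E14.5 version 2, 31.4% in E14.5 Fev-Cre and 76.0% (38 early and 12 late cells) in E17.5 version 2, and was 48.6 to 57.6% in the version 1 libraries. With 1 or 2 libraries per day and kit, no trend with embryonic day was tested, and the Fev-Cre share is tied to its sort.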

How the data were processed

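Single-cell suspensions of embryonic pancreas were sequenced on the 10x Chromium platform, and the UMI counts per gene and cell were deposited by the authors as raw matrices made with Cell Ranger (versions 1.1 and 2.1 in the submitters' processing notes). The 2 wells of the E17.5 version 2 library were summed. Mitochondrial genes were listed at 0 in the version 1 libraries. Cells were gated as described in the report, and UMIs were summed per library and side. The sums were tested with edgeR 4.0.16 (R 4.3.3; quasi-likelihood test, TMM normalisation, low counts removed by filterByExpr, library as a block), with a call at an adjusted p below 0.05 and, where stated, 2-fold. DESeq2 1.42.0 and limma 3.58.1 served as alternatives. Both sides of a library came from the same suspension, which pairs them. Their deviations correlated at 0.464 to 0.879 within libraries, and at up to 0.514 between sides of different libraries, over 4460 genes. On simulated counts of 6118 genes, changes of the same fold in every library were put into 200 of the better-counted genes. Of these, 99% of 2-fold and 100% of 4-fold changes were recovered. Recovery for low-count genes, or for folds that differ between libraries, was not measured. CPM are UMIs per 1000000 UMIs of a sum. The study calls the E14.5 version 1 batches biological replicates, and each library was 1 pool. With library as a block, p-values measure the spread of the late-minus-early difference within a library across these pools. No doublet caller was run, and cells with markers of other compartments were left out in an alternative. Library totals were 15671934 to 196793242 UMIs, and counting intervals cover counting error only.

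Named genes were the 12 with the largest change in each direction among those past the threshold, moving the same way in all 7 libraries and at 20 CPM or more on the higher side. Up to 4 called members of each list, the tested members of the transcription factor, Notch and serotonin lists, genes the study discusses, and the 5 largest stage differences in each direction were added. Genes most correlated with Chgb and Pax4 were not given, since both genes are in the gate. Some members of the lists are counted but not reported here by name. The members of the gate and the gene lists were chosen with earlier results of these data known.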

Additional observations from a re-analysis of the deposited data

Results flagged for a closer look

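For 9 of the 88 genes given with values, the late-to-early log2 ratio of 1 library stood apart from the other 6 by Dixon's criterion for 7 values, which chance meets in about 1 of 20 sets. In E17.5 version 1, with 23 cells on each side, these were Irx2 at -2.40 (others 0.21 to 2.06), 1810008I18Rik at -4.93, Foxa3 at -2.19 and Tead2 at 1.15. In E17.5 version 2 they were Etv1 at 1.75 and Elavl4 at -3.03. In E14.5 version 1 batch 1 they were BC048546 at 4.56 and Nkx6-1 at 0.36, and in batch 2 Cacna2d1 at -2.15. For Irx2, Tead2 and Nkx6-1 the library apart had the opposite sign to the other 6.

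The log2 ratio of late to early was shifted upward at E17.5 relative to E14.5 in edgeR's interaction test for Ppy (6.03), Iapp (4.65), Ush1c (3.50), Fam46a (2.97), Scg2 (2.56), Tmem27 (1.73) and Dlk1 (1.34). It was shifted downward for Hbb-bt (-3.57), Hbb-bs (-3.34), Hba-a1 (-3.17), Runx1t1 (-1.27) and Mt1 (-1.06). DESeq2 called none of these, with a lowest adjusted p of 0.0752.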

How the results depend on the processing

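Of 2142 gene values under the alternatives, 1821 kept the direction and the side of the threshold, 276 kept the direction but lost the call, 27 gained one and 18 turned, over 88 genes of which 79 passed as reported. The 64 genes called at 2-fold became 206 with no low-count filter, 27 with cells thinned to 2000 UMIs, 38 with the gate on thinned cells, 151 with a stricter gate (6 libraries), 15 with early cells by Pax4 alone (6 libraries), 26 by Neurog3 alone (3 libraries), 130 with early cells below 5 Chgb UMIs (4 libraries), 101 in version 2 libraries and 8 with limma on per-cell log values, and 48 to 89 with 1 library left out. The 592 genes past the adjusted p became 308 thinned, 196 by Pax4 alone, 42 by Neurog3 alone, 188 below 5 Chgb UMIs, 112 in version 1 libraries, and 399 to 592 with 1 library left out. Without the replicate block, which drops the pairing of both sides within a library, 6 genes passed either threshold. The stage difference passed 20 genes, 69 with no filter, 154 in version 2 libraries, 0 in DESeq2, and 5 to 42 with 1 library left out. Thinning gave eGFP shares of 85.5% and 97.7%, and early shares of 58.6% (E12.5 version 2), 47.4% (E14.5 version 2), 31.4% (Fev-Cre) and 76.0% (E17.5 version 2). Fewer libraries entered some of these fits, and the cause of these changes was not tested.

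The direction turned for Pyy (-0.034), Irx2 (-0.50), Isl1 (-1.27) and Ddc (0.25) with early cells below 5 Chgb UMIs, and for Ghrl (2.08), Insm1 (0.29), Vim (-0.11) and Gch1 (-0.083) with Pax4 alone. It turned for Isl1 (-0.37) and Ddc (0.14) with Neurog3 alone, and for Ghrl (0.21) and Ddc (0.024) without cells rich in another hormone, an alternative chosen after seeing the data. Ddc, which did not pass, also turned with the gate on thinned cells (0.055), in version 1 libraries (0.36), at E14.5 (0.084), with limma (0.015), and without Fev-Cre or E17.5 version 2 (range with 1 library left out -0.223 to 0.093). Precision was limited most in E17.5 version 1, with 66379 and 69918 UMIs per side.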

Other observations

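The E12.5 version 1 library held 11 cells on each side, fewer than the 15 required, and was left out of the tests reported. Added in an alternative chosen after seeing the data, it gave 46 genes at 2-fold and 580 past the adjusted p, and Pyy (0.93, adjusted p = 0.082) and Dlk1 (0.39, adjusted p = 0.089) lost their calls (edgeR). Its sums held 43728 early and 43852 late UMIs, so UMI counts were compared directly, and a gene with the same count on both sides was taken as not differing. Of the 12 genes named for the largest increases, 7 were higher in late cells, 3 were lower and 2 did not differ. Of the 12 named for the largest decreases, 9 were lower, 1 higher and 2 did not differ. Over all genes called at 2-fold, 18 of 27 higher genes and 28 of 37 lower genes had the same direction there. With 1 library these are values without a test.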
